A study of Mus musculus with 11 samples.

Results

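Mast cells of the skin were followed here through 10 genes that encode their granule proteases, the enzyme that makes histamine and the receptors that drive their growth and degranulation. The members were taken by symbol, and all 10 were found among the 38406 genes of the deposited table. The tissue was back skin of female C57BL/6 mice of 8 to 10 weeks, painted daily for 4 days with 125 mg of a cream containing 5% imiquimod and collected 24 hours after the final dose. Imiquimod activates the innate receptor TLR7 and is used to bring on psoriasis-like inflammation in mice. The 11 libraries came from 6 Trex2 KO mice, replicates 7 to 12, which lack an exonuclease made mainly in keratinocytes, and 5 wild-type (WT) mice, replicates 2 to 6. Every mouse of both groups was shaved and received imiquimod, so the comparison is of genotype within treated skin, and skin without imiquimod was not analysed here. The RNA came from whole pulverized skin, in which fewer mast cells and less RNA per mast cell cannot be told apart.

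Mast cells store proteases, histamine and proteoglycans in granules and release them when surface receptors are triggered. Skin mast cells are of the connective tissue type, which in mice is marked by the chymases Mcpt4 and Cma1, the tryptases and carboxypeptidase A, whereas Mcpt1 and Mcpt2 mark mast cells of mucosa. Their survival depends on the receptor Kit and its ligand stem cell factor. They are triggered by antigen through IgE bound to the receptor FcεRI, or without IgE by cationic peptides and drugs through Mrgprb2.

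Depth was 3125366 to 15557862 counted reads per library in Trex2 KO and 1208896 to 5853454 in WT, so low genes are measured less precisely in WT. A limit of 3 reads corresponded to 1.04 to 5.21 normalized counts in Trex2 KO and 2.72 to 13.5 in WT. Trex2 itself had 0.794 to 3.47 normalized counts in Trex2 KO libraries and 1125 to 2196 in WT libraries, and no library went against its label. Trex2 KO replicates 9 and 12 stood apart from the other libraries, with the highest summed level of 10 keratinocyte genes (222115 and 200447 normalized counts, against 41823 to 121352 in the other 9). Values without them are given below where they move by more than 1.5 times or turn in sign.

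None of the 9 members abundant enough to be tested differed between Trex2 KO and WT skin at an adjusted p of 0.05 (limma, adjusted over 13215 genes), a threshold passed by 0.0151% of all genes tested (0.00757% lower in Trex2 KO). All 10 members nevertheless had a lower mean in Trex2 KO, and the log2 fold changes of the 9 ran between −0.75 for Mrgprb2 and −0.14 for Tpsb2, with a median of −0.29. Over all genes tested the median was 0.01, and 49% had a negative value. At an unadjusted p under 0.05 there were 3 of the 9, Kit, Mrgprb2 and Fcer1a, against 24.4% of all genes, and all 3 had a lower mean in Trex2 KO, against 11.5%. The groups overlapped for all 10 members, while 1.29% of all tested genes had every Trex2 KO library below every WT library and 2.32% did not overlap in either direction. edgeR and DESeq2 on recovered reads, which called 0.0303% and 4.36% of genes, also called none of the members at an adjusted p of 0.05, and DESeq2 gave no adjusted p for Mrgprb2 and Tpsab1. At an unadjusted p under 0.05 edgeR had 3 of the 9, against 22.9% of genes, and DESeq2 had 2, against 23.7%. Without WT replicate 4 limma called 5.6% of genes and none of the members, and 29.5% of genes but 0 of the 9 had an unadjusted p under 0.05. Without Trex2 KO replicates 9 and 12 the median of the 9 members was −0.16, 8 were negative and none had an unadjusted p under 0.05, against 12.5% of genes, while 0.0151% were called.

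**Figure D1:**
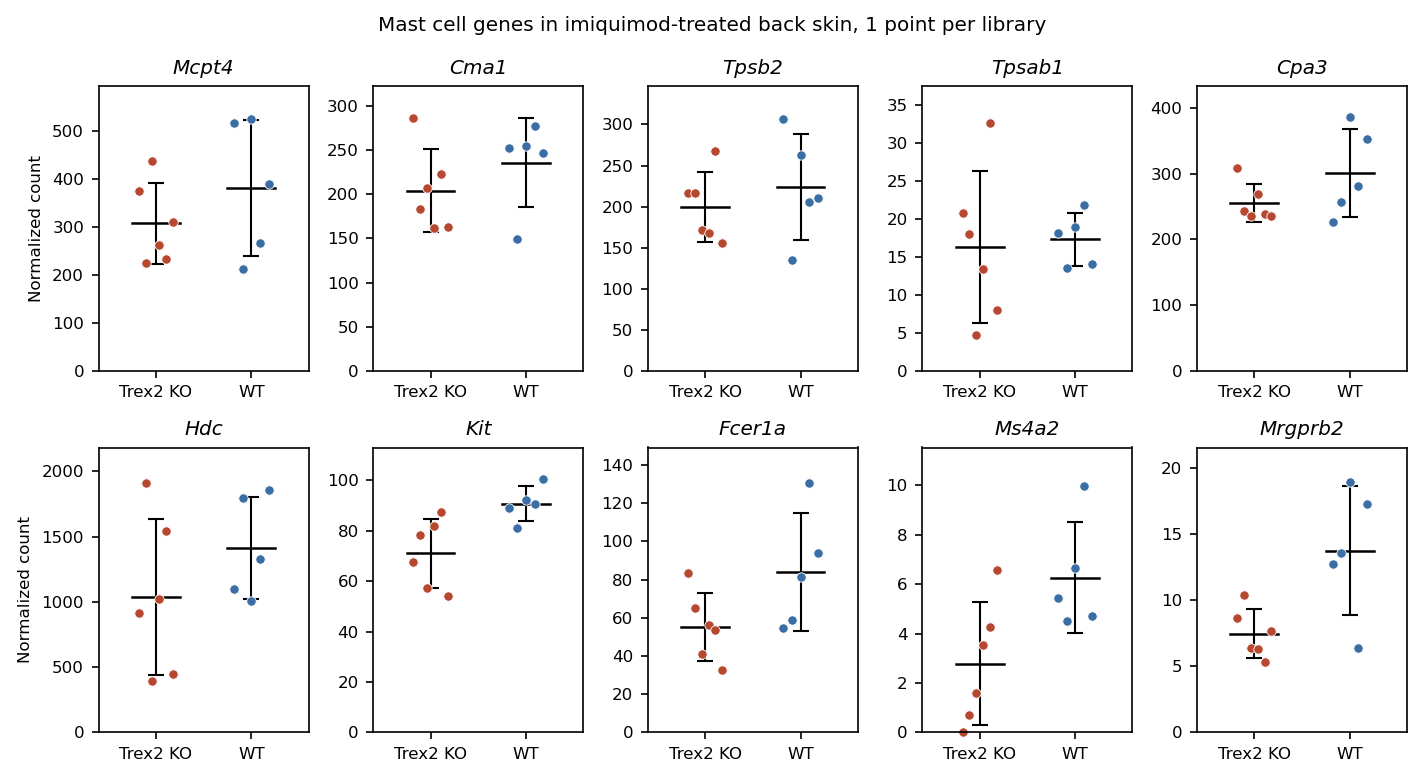
Normalized counts of the 10 mast cell genes in Trex2 KO (left, 6 libraries) and WT skin (right, 5 libraries). Each point is a library, the long bar is the group mean and the whiskers are 1 SD. The groups overlap in every panel, and the lowest libraries for Kit, Fcer1a and Hdc are Trex2 KO libraries.

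Mcpt4 was the most abundant protease of the set. It encodes a chymase, a serine protease held on heparin in the granules, and lies on the minus strand of chromosome 14 from 56059629 to 56062313 (GRCm38, GENCODE M21). It had 224, 287 and 437 normalized counts as the lowest, median and highest Trex2 KO values, against 515, 212, 524, 267 and 389 in WT replicates 2 to 6. The Trex2 KO range lay inside that of WT, with WT replicates 2 and 4 above all Trex2 KO libraries and WT replicate 3 below them. Limma put the log2 fold change at −0.27 (SE 0.25, adjusted p = 0.521), and at −0.42 (SE 0.26, adjusted p = 0.501) without Trex2 KO replicates 9 and 12. Cma1, the other chymase of these cells, lies on the same strand of that chromosome from 55941451 to 55944675. Its Trex2 KO values were 162 at the lowest, 195 at the median and 286 at the highest, against 252, 149, 255, 277 and 246 in WT replicates 2 to 6. WT replicate 3 was the lowest library of all, and the other 4 WT libraries were above 5 of the 6 Trex2 KO libraries. In log2 units the limma difference was −0.20 (SE 0.19, adjusted p = 0.512), with a 95% interval for the fold of 0.656 to 1.15.

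Within a library the balance of the chymases varied. Mcpt4 was 1.54 ± 0.415 times the normalized count of Cma1 in Trex2 KO and 1.61 ± 0.458 times in WT (SD, n = 6 and 5), a difference smaller than the spread (exact permutation test, two-sided, p = 0.764). The ratio ran from 1.05 in Trex2 KO replicate 11 to 2.11 in replicate 9, and from 0.964 in WT replicate 5 to 2.06 in WT replicate 4. Their coding sequences are identical at 68.3% of 732 aligned bases, with a longest identical run of 27 bases, so reads of the pair differ at many positions.

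Promoters of 6 members are shown because GATA factors, above all GATA2, are known to control mast cell genes and because these 6 hold a GATA word close to the start. Each line gives the 130 bases before the RefSeq start site, 5′ to 3′ on the strand of the gene (GRCm38.p6), with matches on either strand to a GATA word in capitals. The words searched were AGATAA, then TGATAA, next AGATAG, and last TGATAG.
Mcpt4, minus strand of chr14:56062311-56062440: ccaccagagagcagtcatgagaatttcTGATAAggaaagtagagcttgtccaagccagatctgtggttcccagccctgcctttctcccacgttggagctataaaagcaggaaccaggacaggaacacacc
Cma1, minus strand of chr14:55944676-55944805: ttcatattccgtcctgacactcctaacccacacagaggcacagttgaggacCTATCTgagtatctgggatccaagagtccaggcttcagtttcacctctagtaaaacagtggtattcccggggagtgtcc
Cpa3, minus strand of chr3:20242182-20242311: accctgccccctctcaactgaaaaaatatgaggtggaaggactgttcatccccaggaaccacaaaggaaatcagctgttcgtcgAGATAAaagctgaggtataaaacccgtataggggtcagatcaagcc
Fcer1a, minus strand of chr1:173227230-173227359: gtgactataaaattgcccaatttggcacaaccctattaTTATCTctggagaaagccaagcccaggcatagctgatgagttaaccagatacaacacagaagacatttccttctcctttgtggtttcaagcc
Mrgprb2, minus strand of chr7:48558087-48558216: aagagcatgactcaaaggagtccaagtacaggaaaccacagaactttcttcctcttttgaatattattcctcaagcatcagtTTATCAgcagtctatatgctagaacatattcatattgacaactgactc
Ms4a2, minus strand of chr19:11623720-11623849: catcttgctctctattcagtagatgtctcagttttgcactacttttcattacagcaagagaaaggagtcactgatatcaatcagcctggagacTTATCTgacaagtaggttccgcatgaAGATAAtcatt

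RefSeq promoter windows of 300 bases were matched for 8 members, all but Tpsb2 and Tpsab1. For Fcer1a alone, bases just after the RefSeq start were not found in a GENCODE transcript, so its start site is less certain. At least 1 of these GATA words stood in 7 of the 8 windows, against 29.8% of 32851 promoter windows of the same length. Kit was the member without a match, and in Hdc the match at −221 from the start lay outside the 130 bases nearest to it. The stretches of Kit and Hdc are therefore not printed. The E-box words CACGTG and also CATGTG, which the mast cell factor MITF is known to bind, stood in 1 of the 8 windows, that of Fcer1a, and in 20.4% of all windows. A match is a description of the letters only, and no binding was measured in this skin. Gata2 had 35.6 ± 6.81 normalized counts in Trex2 KO and 40.5 ± 14.2 in WT (SD, n = 6 and 5), with a log2 fold change of −0.11 (limma adjusted p = 0.814). Gata1 had 22 reads in Trex2 KO and 10 in WT in all (means of 2.64 and 2.39 normalized counts), below the minimum for testing.

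The tryptases are serine proteases stored as tetramers on heparin, and in this skin nearly all of their reads belonged to Tpsb2. Tpsb2 lies on the plus strand of chromosome 17 from 25366305 to 25369098, and Tpsab1 on the minus strand from 25343245 to 25345562. C57BL/6 mice carry a splice-site mutation in Tpsab1 and are known to lack its protein. A stretch of 75 coding bases around the longest run shared by both genes shows how their reads can be told apart, with differing bases in capitals.
Tpsab1, coding bases 283 to 357: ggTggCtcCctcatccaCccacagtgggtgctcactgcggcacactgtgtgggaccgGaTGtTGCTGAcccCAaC
Tpsb2, coding bases 181 to 255: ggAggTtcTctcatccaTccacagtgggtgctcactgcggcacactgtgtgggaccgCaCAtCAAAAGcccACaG

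The stretches differ at 16 bases, and over 826 aligned bases of their longest annotated coding sequences the genes are identical at 76.5%, with a longest shared run of 39 bases. A short read inside such a run could come from either gene, and how the authors' counting treated it is not given in the sources used here. Tpsb2 had 156, 194 and 267 normalized counts as the lowest, median and highest Trex2 KO values, against 307, 135, 262, 205 and 210 in WT replicates 2 to 6. The lowest and the highest library were both WT. Limma put the log2 fold change at −0.14 (SE 0.20, adjusted p = 0.686), the smallest difference among the members, and at −0.01 (SE 0.22, adjusted p = 0.986) without Trex2 KO replicates 9 and 12.

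Tpsab1 was about an order of magnitude lower, with Trex2 KO values of 4.76, 15.7 and 32.7 at the lowest, median and highest, against 18.1, 13.5, 18.9, 21.8 and 14.1 in WT replicates 2 to 6. Its spread was wide in Trex2 KO, where replicate 11 was the highest of all libraries and replicates 9 and 12 the lowest. WT replicate 3 carried 3 reads of it and Trex2 KO replicate 9 carried 6. In log2 units the limma difference was −0.29 (SE 0.40, adjusted p = 0.674), and it was 0.23 (SE 0.31, limma adjusted p = 0.764) without Trex2 KO replicates 9 and 12. Tpsab1 made up 7.05 ± 2.89% of tryptase reads in Trex2 KO and 7.46 ± 1.78% in WT (SD, n = 6 and 5; exact permutation test, two-sided, p = 0.79).

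Cpa3, the carboxypeptidase A of mast cell granules, was the member with the least spread in Trex2 KO. It lies on the minus strand of chromosome 3 from 20215620 to 20242181, over a gene for the microRNA Mir7007 whose reads cannot be told apart from it. It had 236, 241 and 309 normalized counts as the lowest, median and highest Trex2 KO values, against 227, 257, 386, 280 and 353 in WT replicates 2 to 6. WT replicates 4 and 6 were above all Trex2 KO libraries, and WT replicate 2 was below them. Limma put the log2 fold change at −0.22 (SE 0.15, adjusted p = 0.38), and its 95% interval for the fold was 0.69 to 1.08.

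Hdc, histidine decarboxylase, makes histamine from histidine and had the most reads of all members. It lies on the minus strand of chromosome 2 from 126593667 to 126619299. Its lowest, median and highest Trex2 KO values were 397, 967 and 1908 normalized counts, against 1102, 1792, 1004, 1327 and 1853 in WT replicates 2 to 6. The highest library was Trex2 KO replicate 8 and the lowest were Trex2 KO replicates 9 and 12, so the WT range lay inside that of Trex2 KO. In log2 units the limma difference was −0.63 (SE 0.37, adjusted p = 0.303). Without replicates 9 and 12 the mean of the other 4 Trex2 KO libraries was 1347 ± 465, against 1415 ± 390 in WT (SD, n = 4 and 5), with a log2 fold change of −0.09 (SE 0.24, limma adjusted p = 0.882).

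Neutrophils are also known to make Hdc. The summed level of 12 neutrophil genes was 16976 to 89140 normalized counts in Trex2 KO and 49554 to 121834 in WT. All 12 genes had negative log2 fold changes, with a median of −1.24. Limma called none of them (11 at an unadjusted p under 0.05, against 24.4% of all tested genes). The median was −0.70 without Trex2 KO replicates 9 and 12. Mmp9 and S100a8 are examples at −1.19 and −1.12 (limma adjusted p = 0.108 and 0.11), and Stfa2l1 stood at −1.61 (limma adjusted p = 0.108). Within Trex2 KO, replicate 8 had the highest neutrophil sum and the highest Hdc. Replicate 12 had the lowest neutrophil sum and 450 normalized counts of Hdc, but replicate 9, with the lowest Hdc, had a neutrophil sum of 39818 normalized counts, above the 34633 of replicate 10, whose Hdc was 1019. That order depends on the measure, since S100a8 and S100a9 weigh most in the sum (means of 15342 and 17986 normalized counts in Trex2 KO). With the 12 genes weighted equally, as a mean of log2 values centred over the 11 libraries, replicate 9 stood at −1.37. Replicate 10 stood higher on that scale, at −0.35. The part of neutrophils in the Hdc level was not tested. Basophils also express Hdc, Cpa3 and FcεRI. Their granule protease Mcpt8 had 60 reads over all Trex2 KO libraries and 25 over all WT libraries. Prss34, another basophil protease, had 14 in Trex2 KO and 9 in WT. In normalized counts, which allow for depth, Mcpt8 averaged 5.04 ± 2.29 in Trex2 KO and 10.1 ± 10.9 in WT (SD). Prss34 averaged 2.21 in Trex2 KO and 2.65 in WT, and both were below the minimum for testing.

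**Figure D2:**
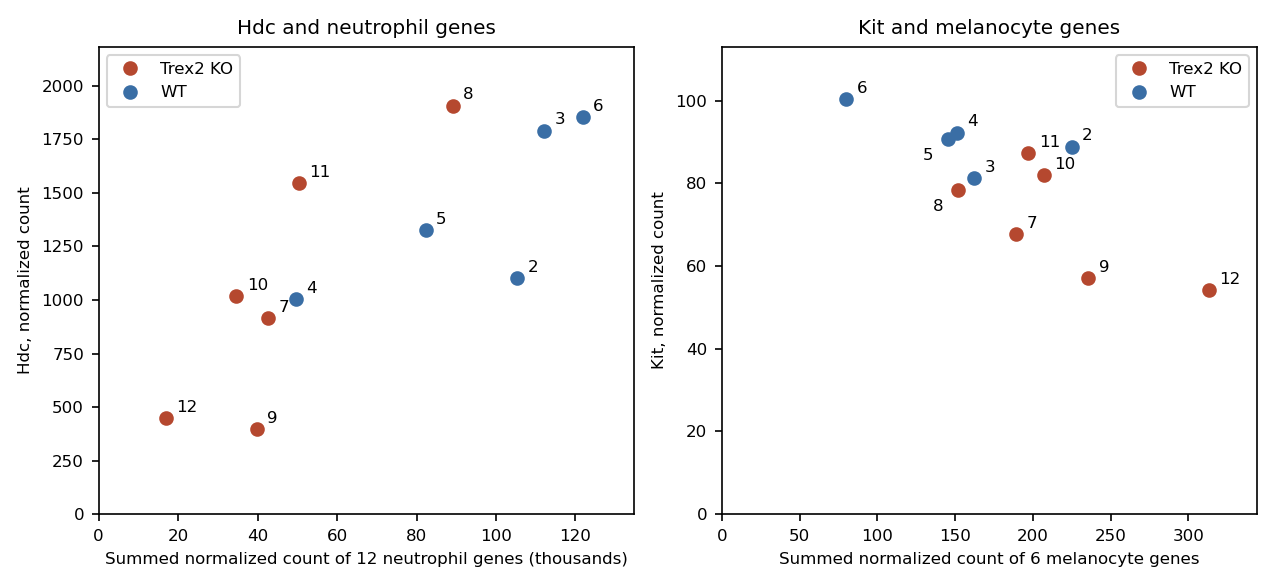
Left, normalized count of Hdc against the summed normalized count of 12 neutrophil genes; right, Kit against the sum of 6 melanocyte genes. Each point is a library with its replicate number, Trex2 KO in red and WT in blue. Trex2 KO replicates 9 and 12 have the lowest Hdc and the lowest Kit, and they have the highest melanocyte sums.

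Kit, the receptor tyrosine kinase for stem cell factor, spans 75574916 to 75656722 on the plus strand of chromosome 5. Its lowest, median and highest Trex2 KO values were 54.1, 73 and 87.3 normalized counts, against 88.9, 81.2, 92.3, 90.8 and 100.4 in WT replicates 2 to 6. The WT libraries were close together (SD 6.89 around a mean of 90.7), and 4 of the 5 were above all Trex2 KO libraries. The mean in Trex2 KO was 71.1 ± 13.6 (SD, n = 6), or 78.4% of the WT mean. The log2 fold change was −0.37 (SE 0.16, unadjusted p = 0.0363, limma adjusted p = 0.18). For this single gene, permuting the libraries exactly gave p = 0.0216 (two-sided, not adjusted for the 10 members tested). Without Trex2 KO replicates 9 and 12 limma put it at −0.20 (log2, SE 0.15, adjusted p = 0.571).

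Melanocytes also carry Kit. Their genes Dct, Tyrp1, Pmel and Sox10 had positive log2 fold changes with a median of 0.57. Limma called none (0 at an unadjusted p under 0.05, against 24.4% of all tested genes). That median was 0.35 without Trex2 KO replicates 9 and 12 and 0.37 without WT replicate 6. Dct, an enzyme of melanin synthesis, had 107 ± 35.1 normalized counts in Trex2 KO and 71.4 ± 36.9 in WT (SD, n = 6 and 5; log2 fold change 0.65, limma adjusted p = 0.206), while Tyrp1 stood at 0.55 (limma adjusted p = 0.286). The summed level of all 6 melanocyte genes was 152 to 313 in Trex2 KO and 80.0 to 225 in WT, with the lowest sum in WT replicate 6, the library with the most Kit. Kitl, the ligand of Kit, had a log2 fold change of −0.14 (limma adjusted p = 0.695).

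The IgE receptor is built of an α chain that binds IgE, a β chain and a γ chain shared with other Fc receptors. Fcer1a, the α chain, lies on the minus strand of chromosome 1 from 173221284 to 173227214. Its lowest, median and highest Trex2 KO values were 32.6, 54.8 and 83.3 normalized counts, against 54.4, 58.7, 81.2, 131 and 94.1 in WT replicates 2 to 6. Trex2 KO replicates 9, 11 and 12 were below every WT library, and WT replicates 5 and 6 were above every Trex2 KO library. The mean was 66% of that in WT (55.3 ± 17.9 and 83.8 ± 30.9, SD, n = 6 and 5). By limma it stood at −0.58 in log2 fold change (SE 0.27, unadjusted p = 0.0486, adjusted p = 0.202). Permuting the libraries exactly gave p = 0.0844 (two-sided). Without Trex2 KO replicates 9 and 12 limma put it at −0.32 (log2, SE 0.26, adjusted p = 0.592).

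Ms4a2, the β chain, was the member too low to be tested, with a mean of 4.37 normalized counts over all libraries. It lies on the minus strand of chromosome 19 from 11615523 to 11623719. Trex2 KO replicates 7 to 12 held 0, 1, 2, 9, 8 and 19 reads, and WT replicates 2 to 6 held 3, 1, 6, 11 and 3. In normalized counts these were 0, 0.693, 1.59, 3.55, 4.29 and 6.59 in Trex2 KO, against 5.44, 4.51, 6.67, 9.98 and 4.71 in WT. Trex2 KO replicate 7 had none, which at its depth allows up to 5.21 normalized counts. Libraries with fewer than 3 reads numbered 3 in Trex2 KO and 1 in WT. The difference of the mean log2(normalized count + 1), Trex2 KO minus WT, was −1.20 (exact permutation test, two-sided, unadjusted p = 0.0476). That p was 0.0649 under TMM scaling and 0.0909 after quantile normalization. In the same exact test it lay between 0.0524 and 0.0857 when any 1 library other than Trex2 KO replicate 11 or 12 was left out, at 0.0397 without replicate 11 and at 0.00794 without replicate 12.

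Fcer1g, the γ chain, is made by many myeloid cells and was far more abundant, with 1942 ± 701 normalized counts in Trex2 KO and 3263 ± 500 in WT (SD, n = 6 and 5). Of the 6 Trex2 KO libraries 5 were below every WT library, and limma put it at −0.82 (log2, SE 0.24, adjusted p = 0.108). In the wider list of 21 genes that signal below FcεRI and Kit, 18 had negative log2 fold changes (median −0.39). Limma called none in either direction (10 at an unadjusted p under 0.05, against 24.4% of all tested genes). Without Trex2 KO replicates 9 and 12 the median of the 21 was −0.15. Lat2, an adaptor of immune receptors, stood at −0.87 (SE 0.23, limma adjusted p = 0.108), with 103 ± 24.9 normalized counts in Trex2 KO and 192 ± 58.2 in WT. Plcg1, a phospholipase that releases calcium and is also made by keratinocytes, had a positive value, 0.56 (SE 0.14, limma adjusted p = 0.108), with 278 ± 41.4 normalized counts in Trex2 KO and 188 ± 29.1 in WT, and all 6 Trex2 KO libraries were above every WT library. Of all tested genes, 2.32% had groups that did not overlap, in either direction. Many of these 21 genes are also expressed by neutrophils and macrophages, and the part of those cells was not tested.

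Mrgprb2, the receptor for cationic peptides and drugs, was the tested member with the lowest fold change. It lies on the minus strand of chromosome 7 from 48550965 to 48558086. Its lowest, median and highest Trex2 KO values were 5.36, 6.99 and 10.4 normalized counts, against 12.7, 13.5, 18.9, 6.35 and 17.3 in WT replicates 2 to 6. Of the 5 WT libraries 4 were above all 6 Trex2 KO libraries, and WT replicate 5 was among the lowest. The mean was 7.45 ± 1.85 in Trex2 KO, 54.2% of the 13.8 ± 4.87 in WT (SD, n = 6 and 5). The values rest on 5 to 22 reads per library in Trex2 KO and 3 to 17 in WT. By limma it stood at −0.75 in log2 fold change (SE 0.33, 95% interval −1.45 to −0.05, unadjusted p = 0.0372, adjusted p = 0.182). Permuting the libraries exactly gave p = 0.026 (two-sided, not adjusted for the 10 members). Without Trex2 KO replicates 9 and 12 it was −0.72 (SE 0.40, limma adjusted p = 0.457), and with reads thinned to the shallowest library −1.83 (SE 0.81, limma adjusted p = 0.236). Mrgprb1, a relative of Mrgprb2, averaged 40.2 normalized counts in Trex2 KO and 42.9 in WT (log2 fold change 0.03, limma adjusted p = 0.968).

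**Figure D3:**
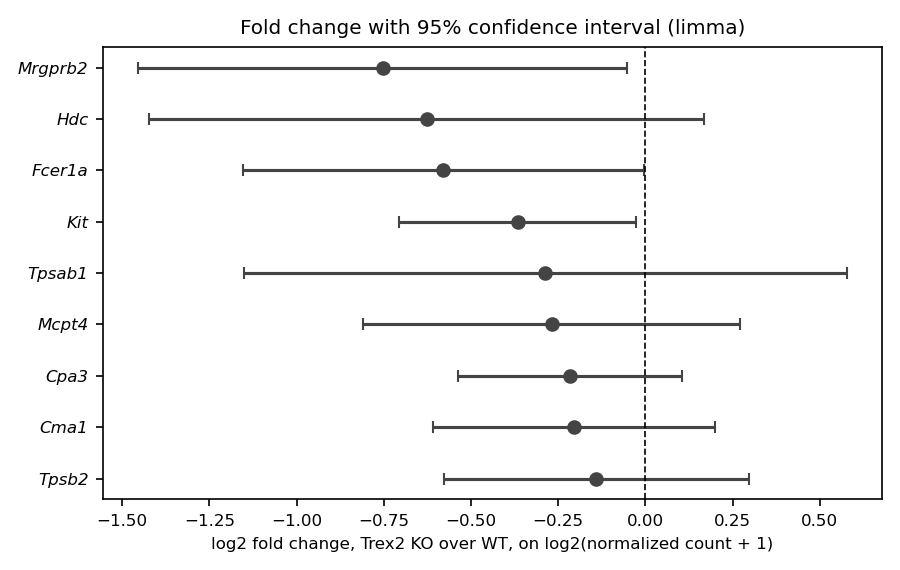
Log2 fold change of the 9 tested members, Trex2 KO over WT, with 95% confidence intervals from limma. All points lie left of 0, and the intervals of Mrgprb2, Fcer1a and Kit end below 0 before adjustment over 13215 genes.

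Compared per kilobase of annotated exon, the members fell into an abundant and a scarce set. Mcpt4 led with 277 ± 76.2 normalized counts per kb in Trex2 KO and 344 ± 128 in WT (SD, n = 6 and 5). Cma1, Hdc and Cpa3 followed at 200.4, 189 and 182 per kb over all libraries and did not separate from each other, since Cma1 was above Hdc in 6 of 11 libraries and Hdc above Cpa3 in 6 of 11. Tpsb2 had 132 per kb and was below Cpa3 in 9 of 11 libraries. Fcer1a had 68.4 per kb and was above Kit in all 11. Kit at 8.98, Tpsab1 at 8.00 and Mrgprb2 at 4.97 per kb were close to each other, with Kit above Tpsab1 in 8 of 11 libraries and Tpsab1 above Mrgprb2 in 7 of 11. Ms4a2 was the lowest at 1.55 per kb. Exon length here was the union of all annotated exons of a gene, 1594 bases in Tpsb2, 2094 in Tpsab1 and 1517 in Cpa3. Single transcripts of these genes are shorter, for example 1081, 1156 and 1449 bases in the same order. The places of Tpsb2 and Tpsab1 in the ranking can therefore change with the length used, and other lengths were not tested. The mucosal proteases Mcpt1 and Mcpt2 had 3 and 2 reads in all Trex2 KO libraries together, and 1 and 0 in WT.

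**Figure D4:**
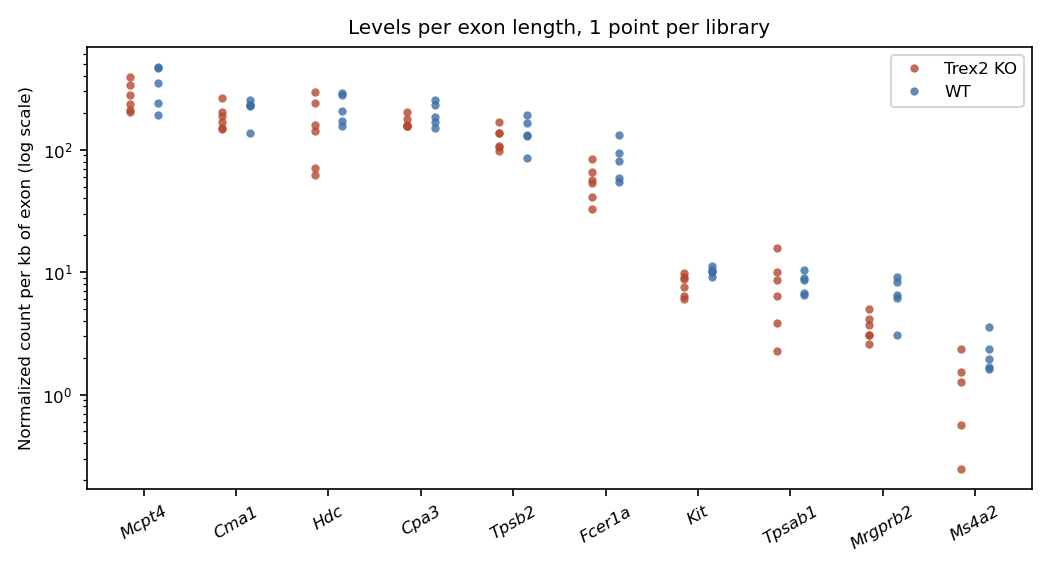
Normalized count per kb of exon on a log axis, 1 point per library, Trex2 KO left of WT for each gene. The order runs from Mcpt4 down to Ms4a2, with a gap between Fcer1a and Kit; the Trex2 KO library at 0 for Ms4a2 is not drawn.

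The members varied together only in part. Over the 11 libraries 41 of 45 pairs had a positive Pearson r of log2 values, with a median of 0.37, and these libraries share depth and tissue composition. WT replicate 3, the shallowest library, was the lowest for Mcpt4, Cma1 and Tpsb2, but had the next to highest Hdc of the WT group. WT replicate 4 was above the 11-library median for 9 of the 10 members and was the highest for Mrgprb2, Mcpt4 and Cpa3. Trex2 KO replicates 9, 10 and 12 were above that median for 1 member each. For replicates 9 and 12 that member was Mcpt4 in replicate 9 and Ms4a2 in replicate 12, and these libraries had the lowest Tpsab1 and Hdc of the 11.

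**Figure D5:**
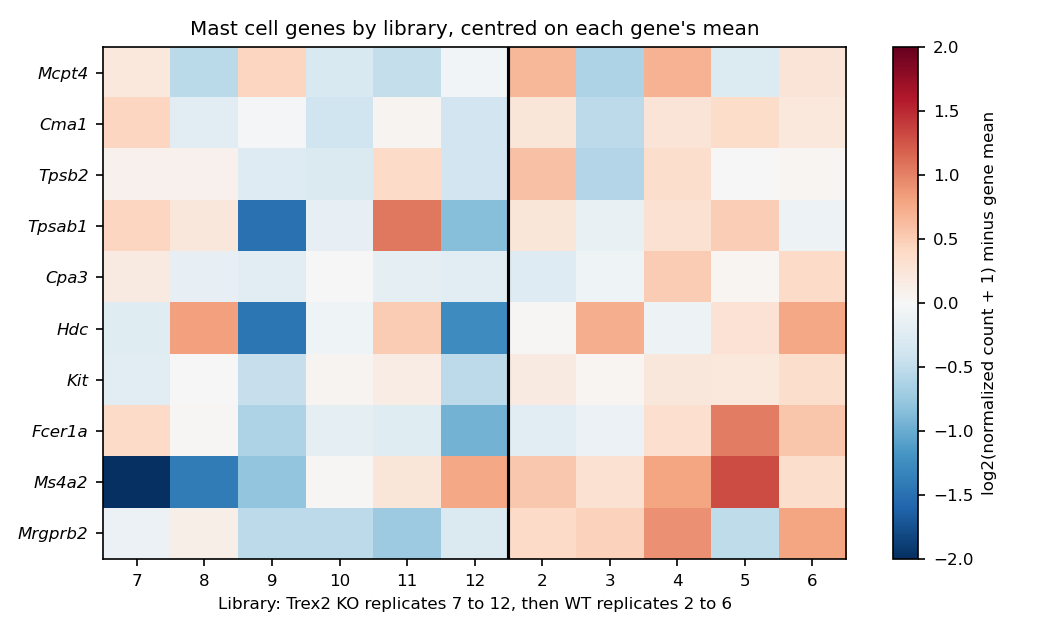
Log2(normalized count + 1) of each member minus its mean over the 11 libraries, with Trex2 KO libraries left of the line and WT libraries right of it. Trex2 KO replicates 9 and 12 are low for Hdc, Tpsab1 and Fcer1a but not for Mcpt4, and WT replicate 3 is low for Mcpt4, Cma1 and Tpsb2.

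A mean of the 9 tested members, each centred over the 11 libraries, ran from −0.55 to 0.13 in Trex2 KO and from −0.09 to 0.39 in WT (log2 units). Among 12551 other named genes, Fez2, Hexa, Ctsb, Pla2g15 and Folr2 had the Pearson r closest to 1 with it, between 0.94 and 0.96 over the 11 libraries. These values describe likeness over libraries that share depth and composition, and the genes were ranked by them. Hexa and Ctsb encode lysosomal enzymes and Folr2 a folate receptor of macrophages. Hexa averaged 707 ± 161 normalized counts in Trex2 KO and 973 ± 149 in WT (SD, n = 6 and 5; limma log2 fold change −0.48, SE 0.17, adjusted p = 0.128). Folr2 stood at −0.44 (SE 0.20, limma adjusted p = 0.202).

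Other genes of mast cell granules and lineage were followed as a list of 15, of which 7 were abundant enough to be tested. Their log2 fold changes were negative in 3 and positive in 4, with a median of 0.03. Limma called none (3 at an unadjusted p under 0.05, against 24.4% of all tested genes). That median was near 0 and had no stable sign, with −0.08 to 0.16 when 1 library was left out and 0.16 without Trex2 KO replicates 9 and 12. Srgn, the core protein of granule proteoglycans that other leukocytes share, had 1821 ± 1215 normalized counts in Trex2 KO and 3638 ± 961 in WT (SD, n = 6 and 5; limma log2 fold change −1.22, SE 0.39, adjusted p = 0.115). Cd63, a protein of granule and lysosome membranes, stood at −0.68 (SE 0.21, limma adjusted p = 0.112). Rab27b, a GTPase of granule secretion, had a positive value, 1.28 (SE 0.44, limma adjusted p = 0.126). Tpsg1, the membrane-bound γ tryptase next to Tpsab1 and Tpsb2 in the genome, had 35 reads in Trex2 KO and 20 in WT. Slc18a2, which loads histamine into granules, had 49 in Trex2 KO and 19 in WT. The Trex2 KO libraries were deeper as a group. In normalized counts Tpsg1 averaged 3.13 ± 1.68 in Trex2 KO and 6.30 ± 2.00 in WT (SD, n = 6 and 5). Slc18a2 averaged 4.27 ± 1.90 in Trex2 KO and 5.35 ± 1.67 in WT, and both genes were below the minimum for testing.

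Enzymes and receptors of mast cell mediators were a list of 16, of which 11 were tested, 7 negative and 4 positive with a median of −0.23. Limma called none (2 at an unadjusted p under 0.05, against 24.4% of all tested genes). The median turned positive without Trex2 KO replicate 9 (0.06), without replicates 9 and 12 (0.09), and with no filter or a minimum mean of 50 (0.04 for each), so the list had no settled direction. It was −0.10 without Trex2 KO replicate 12 alone and −0.14 without Trex2 KO replicate 7 or WT replicate 6. Alox5ap, needed for leukotriene synthesis and also made by neutrophils, stood at −1.01 (SE 0.34, limma adjusted p = 0.12). Ptgs1, a cyclooxygenase, averaged 335 ± 101 normalized counts in Trex2 KO and 220 ± 54.3 in WT (SD, n = 6 and 5; limma log2 fold change 0.58, SE 0.21, adjusted p = 0.139). Of the basophil list, Il3ra, which other myeloid cells share, stood at −0.46 (limma adjusted p = 0.163) and Cd200r3 at 0.08 (limma adjusted p = 0.889).

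The cells around mast cells are given for comparison. Genes of fibroblasts, which surround mast cells in the dermis, were negative in 9 of 10 (median −0.28), with Thy1 at −0.70 and Col1a2 at −0.31 (limma adjusted p = 0.108 and 0.214). The medians were −0.35 over 6 adipocyte genes, with Cfd at −0.61 and Fabp4 at −0.72 (limma adjusted p = 0.176 and 0.184), and −0.28 over 6 muscle genes, with Myh4 at −0.75 and Mylpf at −0.50 (limma adjusted p = 0.169 and 0.207). The muscle median was −0.01 without Trex2 KO replicates 9 and 12, −0.15 without replicate 12 or WT replicate 2 alone and −0.42 without WT replicate 4. Keratinocyte genes were positive in all 10 (median 1.11, and 0.69 without Trex2 KO replicates 9 and 12), with Dsg3 at 1.23 and Cdh1 at 0.92 (limma adjusted p = 0.108 for each). Limma called none of the genes in these 4 lists at an adjusted p of 0.05. At an unadjusted p under 0.05 there were 12 of 32, against 24.4% of all tested genes. These were 7 of 10 keratinocyte, 1 of 10 fibroblast, 3 of 6 adipocyte and 1 of 6 muscle genes. Reads are shares of a library. The members' median was −0.29, beside −0.28 for fibroblast genes, −0.28 for muscle genes, −0.35 for adipocyte genes and 1.11 for keratinocyte genes. Whether these medians differ was not tested.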

How the data were processed

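The authors deposited normalized counts, a signal equal to a gene's read count divided by 1 size factor per library. TopHat2 2.0.8, featureCounts 1.4.6, DESeq2 1.8.1 and GRCm38 are named in the submitters' processing notes; the sources used here give neither annotation version nor strandedness. All values were whole multiples of 1 read (100% within 0.01 of a read), so whole reads were recovered. Replicate numbers in titles matched the columns, and all library pairs of a group differed by more than sampling noise (chi-square over its degrees of freedom at least 4.74). The labels call replicates biological and give no batch.

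The test was limma 3.58.1 with a variance trend (R 4.3.3), run on log2(normalized count + 1); 13215 genes averaging 10 or more entered, and the Benjamini-Hochberg threshold was 0.05. Fold changes are Trex2 KO over WT on that scale, which understates low genes. Single members also had an exact permutation test over samples (two-sided, smallest possible p 0.00216). edgeR 4.0.16 and DESeq2 1.42.0 ran on recovered reads. The limma script was tested on simulated data. Confidence intervals of fold changes are from limma and reflect the spread between libraries. Limits from reads cover counting error only. Positions and exon lengths are from GENCODE M21, sequences from RefSeq GRCm38.p6 and GENCODE transcripts, aligned with Biopython 1.88. Members and lists were chosen with earlier results of these data known. All 10 members were named; of each other list, the 2 tested genes of smallest p, plus some named for their role after their values were seen. Ptgdr2 was found under an older symbol.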

Additional observations from a re-analysis of the deposited data

Results flagged for a closer look

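Cma1 in WT replicate 3 had 148.9 normalized counts, far below the other 4 WT libraries at 246 to 277. It was the 1 group among 20 checked (10 members in each genotype) with a library so far from the rest, and chance flags about 1 in 20. The value rests on 33 reads in the shallowest library, and without it the log2 fold change of Cma1 was −0.36.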

How the results depend on the processing

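Over 27 alternatives no member passed an adjusted p of 0.05, and the number of tested members with a negative log2 fold change was 9 in each leave-one-out fit. The direction changed for Tpsab1 alone, at 0.23 without Trex2 KO replicates 9 and 12. The count of all tested genes past the threshold, 2 in limma, was 6 with array weights, 4 in edgeR and 576 in DESeq2 on recovered reads, and ranged from 2 to 740 when 1 library was left out (740 without WT replicate 4). The cause was not tested. With depth as a covariate the medians of the neutrophil, adipocyte and muscle lists were −0.77, −0.09 and −0.10. Depth limits Ms4a2, Mrgprb2 and Tpsab1 most, with fewer than 25 reads in every WT library. No paired analysis was possible because the groups share no replicate numbers.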
